A study of Mus musculus with 4 samples.

Results

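The 10 genes studied here belong to the killing machinery of natural killer (NK) cells: the granzymes Gzma, Gzmb, Gzmc, Gzmk and Gzmm, the perforin gene Prf1, the granule scaffold gene Srgn, the cathepsins Ctsc and Ctsw, and the granzyme inhibitor gene Serpinb9. They were chosen by name, with earlier results of these data known. Each symbol matched 1 gene in the deposited tables, so that 10 of 37310 genes were studied. RNA was sequenced from bone marrow NK cells of 2 dKO and 2 Ctrl libraries. The dKO mice are Gabpb1l-/-Gabpb2-/-, that is, they lack the long form of Gabpb1 and Gabpb2 and with them the GABP tetramer; Ctrl mice are their littermates, whose alleles the labels give only as Ctrl. All were C57BL/6 mice aged 6 to 8 weeks, and the sort took cells without CD3e and with NK1.1 and CD49b. How many animals went into a library is not given in the sources used here. GABP is an Ets-family transcription factor whose alpha subunit binds DNA and whose beta subunits carry the activating part.

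NK cells kill by releasing lytic granules onto a target cell. Perforin opens the target's membrane to granzymes, serine proteases that then cleave proteins inside the target. Granzymes are made as inactive precursors, are trimmed by cathepsin C, and are packed on the proteoglycan serglycin, while the cytosolic serpin encoded by Serpinb9 protects the killer cell from granzyme B that leaks from its own granules. Granzyme and perforin transcripts are known to be present in resting mouse NK cells.

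Gene counts summed to 31469644 and 30233870 in dKO 1 and dKO 2, against 34724516 and 33299226 in Ctrl 1 and Ctrl 2. Libraries also differed in 2 measures of quality: reads in no gene made up 23.8% and 24.3% in dKO, against 18.1% and 21.5% in Ctrl, and 19450 and 19220 genes were read in dKO, against 15921 and 18206 in Ctrl. Their part in the granule results was not tested. Gabpb2 had 2.64 and 2.85 CPM (gene counts scaled to a common library size with TMM) in dKO, against 36.5 and 30.4 CPM in Ctrl (log2 fold change -3.61, SE 0.26, edgeR adjusted p = 0.00126), which matches the genotype label. Gabpb1, whose count over the whole gene cannot check its long form, was at 81.2 and 79.4 CPM in dKO and 57.1 and 52.0 CPM in Ctrl, and Gabpa at 101.5 and 98.4 CPM in dKO and 81.6 and 80.8 CPM in Ctrl (adjusted p = 0.273 and 0.578). NK identity markers were present in every library, their 11 genes summing to 12773 and 12386 CPM in dKO and to 13822 and 14362 CPM in Ctrl, and none of the 11 passed the test. Xist had 2 and 9 counts in dKO and 6066 and 6430 counts in Ctrl, and 4 Y-linked genes were read only in dKO. The labels give no sex, but by these transcripts the dKO libraries were male and the Ctrl libraries female. Genotype and sex therefore cannot be told apart in any comparison below.

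None of the 10 granule genes passed the test across all genes, in which 85 of 13904 genes (0.611%) were called and 41 (0.295%) were called as lower in dKO (edgeR quasi-likelihood test, Benjamini-Hochberg adjusted p under 0.05). All 10 passed the filter on low counts. In dKO, 8 of the 10 had a lower fitted level than in Ctrl, as 48.4% of all tested genes did, and 2 a higher one, and the median log2 fold change of the 10 was -0.52, against 0.01 over all tested genes. Both dKO libraries lay below both Ctrl libraries for 6 members (Gzma, Gzmk, Gzmm, Prf1, Ctsc and Serpinb9), a pattern that 19.9% of all tested genes showed. Both dKO libraries lay above both Ctrl libraries for Gzmc alone among the members, as for 21.7% of all tested genes. The same 6 members had an unadjusted p under 0.05 and a lower level in dKO, a rule that 5.34% of tested genes met. No member had such a p with a higher level, against 5.24% of tested genes. The members were chosen with earlier results of these data known, so these shares are no test of the set. DESeq2 called 2 members (Gzma and Serpinb9), but it also called more of all genes, 395 of 13904. With limma-voom, 1 member (Serpinb9) was called among 91 of 13904 genes. With bulk RNA, fewer cells with these transcripts and less transcript per cell cannot be told apart.

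**Figure D1:**
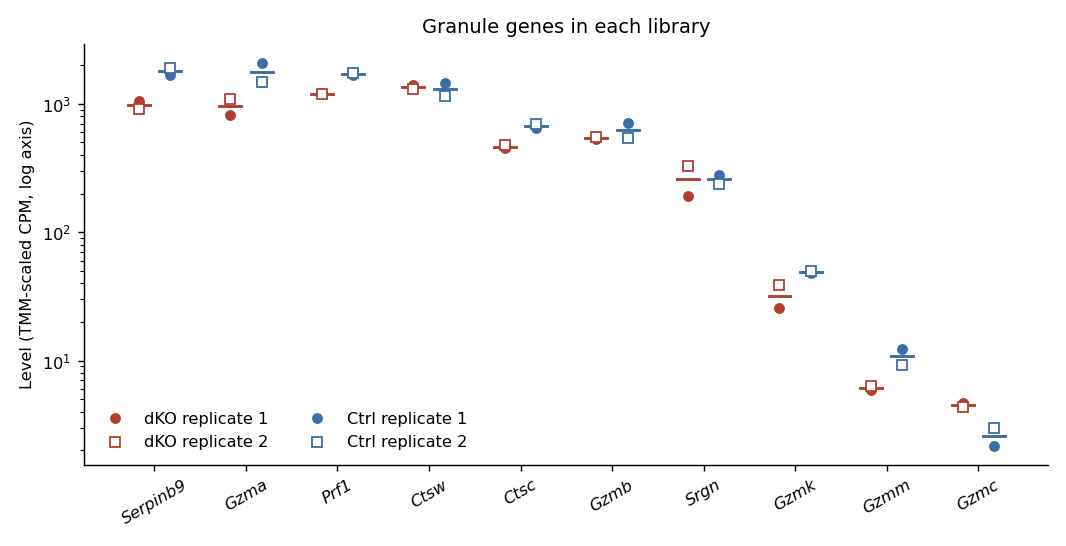
Level of each granule gene in CPM (log axis) in the 2 dKO libraries (red, left of each pair) and the 2 Ctrl libraries (blue, right), with short lines at the group means; genes run from highest to lowest Ctrl mean. Serpinb9, Gzma, Prf1 and Ctsc show both red points below both blue ones, while those of Ctsw, Gzmb and Srgn overlap.

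Transcript levels per length, as the authors' TPM (transcripts scaled by length and depth), ranked the genes from Gzma down to Gzmc. Gzma averaged 2397 ± 295 TPM in dKO and 4437 ± 896 TPM in Ctrl (SD, n = 2 each) and was the highest of the 10 in all 4 libraries. Ctsw came next, between 1485 and 1607 TPM over the 4 libraries, and its range touched neither that of Gzma nor that of Prf1. The next 4 places were not separable by their spread. Prf1 ranged from 836 to 1308 TPM over the 4 libraries, and its lowest value lay within the ranges of Gzmb (713 to 895 TPM), Srgn (617 to 904 TPM) and Serpinb9 (411 to 936 TPM). Prf1 exceeded Gzmb in all 4 libraries, but in dKO 2 it was below Srgn, at 836 against 904 TPM. Srgn exceeded Serpinb9 in 2 of 4 libraries. Ctsc (311 to 495 TPM) was below Serpinb9 in all 4 libraries although the ranges overlap. Gzmk followed at 55.6 to 102 TPM, clear of its neighbours on both sides. Gzmm (8.16 to 17.5 TPM) and Gzmc (4.86 to 10.8 TPM) were the lowest, with overlapping ranges.

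The stretches before the start sites are shown for 5 members: Serpinb9 and Gzma, which had the smallest p-values, Prf1 for the pore, and Gzmb and Srgn, whose levels overlapped between genotypes and whose windows hold 0 and 3 Ets core matches. Each is the 250 bases before a RefSeq start site on GRCm38.p6, 5′ to 3′ on the gene's strand, with capitals marking the Ets core letters GGAA or, on the other strand, TTCC. They lie at chr13:33004291-33004540 (Serpinb9, plus strand), chr13:113100982-113101231 (Gzma, minus strand), chr10:61297586-61297835 (Prf1, plus strand), chr14:56262335-56262584 (Gzmb, minus strand) and chr10:62527446-62527695 (Srgn, minus strand, the first of its start sites). The GENCODE model of Serpinb9 begins further upstream, at 33003250. That of Gzmb begins further downstream, at 56262260, and the bases between that start and the window were not searched.
Serpinb9: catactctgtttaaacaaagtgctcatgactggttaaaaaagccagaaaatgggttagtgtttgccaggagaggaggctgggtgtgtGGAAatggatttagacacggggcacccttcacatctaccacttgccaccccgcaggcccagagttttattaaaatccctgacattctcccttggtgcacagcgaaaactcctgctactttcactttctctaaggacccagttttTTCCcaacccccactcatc
Gzma: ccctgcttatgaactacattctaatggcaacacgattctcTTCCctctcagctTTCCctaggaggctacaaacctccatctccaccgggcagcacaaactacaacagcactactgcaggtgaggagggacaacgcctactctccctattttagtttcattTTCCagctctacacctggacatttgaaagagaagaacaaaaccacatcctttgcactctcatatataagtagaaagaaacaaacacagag
Prf1: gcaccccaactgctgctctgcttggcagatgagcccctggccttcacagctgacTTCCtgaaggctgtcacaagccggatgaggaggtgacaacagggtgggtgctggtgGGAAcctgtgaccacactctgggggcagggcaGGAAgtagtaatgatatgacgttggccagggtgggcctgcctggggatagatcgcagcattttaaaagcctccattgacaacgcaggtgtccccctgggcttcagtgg
Gzmb: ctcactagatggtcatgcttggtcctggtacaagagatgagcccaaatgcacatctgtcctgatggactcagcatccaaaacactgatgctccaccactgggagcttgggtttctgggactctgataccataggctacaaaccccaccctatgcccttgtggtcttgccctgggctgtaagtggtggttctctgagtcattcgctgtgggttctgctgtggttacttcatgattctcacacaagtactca
Srgn: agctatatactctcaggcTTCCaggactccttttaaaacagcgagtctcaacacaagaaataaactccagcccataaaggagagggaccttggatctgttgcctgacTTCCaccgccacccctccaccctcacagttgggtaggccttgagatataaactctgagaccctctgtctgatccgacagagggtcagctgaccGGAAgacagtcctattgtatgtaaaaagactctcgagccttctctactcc

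The tables held 11 windows for 9 of the members, and Ctsw had none. The Ets core GGAA was found in 10 of the 11 windows, counting both strands, against 93.4% of 32851 RefSeq windows of the same length. Gzmb was the exception, with 0 matches in the window printed above, which stops short of its GENCODE start. The Gzmk window lies inside its GENCODE model, which begins further upstream. The longer letters CCGGAAG, which contain the core and are typical of GABP sites, occurred in 6.91% of all windows and in 1 of the 11 member windows, that of Srgn, where they start 52 bases before the start site. Srgn was also the member with the log2 fold change nearest 0 (-0.004, SE 0.25), and a link between these letters and the levels was not tested. The T-box letters GGTGTG were found in 4 of the 11 windows (Gzmk, Gzmm, Ctsc and Serpinb9), against 16.3% of all windows. The RUNX letters TGTGGT were found in 6 of the 11, each of a different member, against 14.05%. The T-box match of Gzmm and the RUNX match of Srgn lie in the window of a further start site. Those windows overlap annotated exons of their genes. Matches of different motifs were counted separately, and the core inside the longer GABP-type letters was counted in both.

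**Figure D2:**
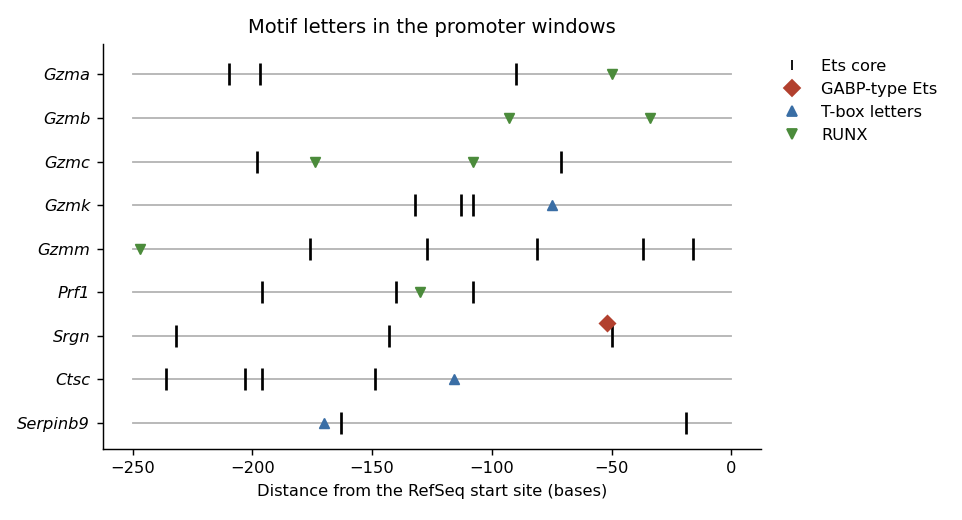
Motif matches in the 250 bases before the first RefSeq start site of 9 members (Ctsw had no window), by distance from the start in bases: black strokes for the Ets core, a diamond for the longer GABP-type letters, triangles for T-box letters (up) and RUNX letters (down), on either strand. The only diamond is in Srgn, 52 bases before its start, and the Gzmb line has no black stroke. The further windows of Gzmm and Srgn, which hold the Gzmm T-box match and the Srgn RUNX match, are not drawn.

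Prf1 encodes perforin, the pore protein without which granzymes do not reach the target's cytosol. It was at 1211 and 1189 CPM in the dKO libraries, against 1688 and 1723 CPM in the Ctrl libraries. The groups were apart and the libraries of each group close together. The log2 fold change was -0.51 (SE 0.14, edgeR adjusted p = 0.224), or 70.4% of the Ctrl level, with a 95% interval of the difference from -0.83 to -0.18 on the log2 scale. Leaving out any 1 library kept its estimate within -0.52 and -0.49, the narrowest such range among the 10 genes. Prf1 lies on chromosome 10 from 61297833 to 61304680 (GRCm38).

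Gzma encodes granzyme A, a tryptase that cleaves after basic residues. It had 822 and 1089 CPM in dKO, against 2074 and 1469 CPM in Ctrl. Both dKO values lay below both Ctrl values, but Ctrl 1 was 1.41 times Ctrl 2 and dKO 2 was 1.325 times dKO 1. Its log2 fold change was -0.89 (SE 0.21, edgeR adjusted p = 0.160), or 53.9% of the Ctrl level. The estimate was -0.62 without Ctrl 1 and -1.12 without Ctrl 2, and without Ctrl 2 Gzma passed (adjusted p = 0.0404). It passed also with DESeq2 (adjusted p = 0.00421) and without the count filter (adjusted p = 1.15e-05). The p-values of both fits follow a normal curve, which takes the spread between libraries as known.

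Gzmb encodes granzyme B, which cleaves after aspartate and starts caspase-driven death in the target. It had 534 and 550 CPM in dKO, against 706 and 546 CPM in Ctrl. The groups overlapped, since dKO 2 was slightly above Ctrl 2. Its log2 fold change was -0.21 (SE 0.17, edgeR adjusted p = 0.752), with a 95% interval from -0.60 to 0.18, and was -0.01 without Ctrl 1 and -0.38 without Ctrl 2. The ratio of Gzma to Gzmb in TPM was 2.91 and 3.66 in dKO, against 5.67 and 5.22 in Ctrl. The ratio does not depend on how libraries are scaled, and both dKO ratios were below both Ctrl ratios. Such ratios were computed for 7 chosen pairs of members. The pairs share genes, inverting a pair reverses its direction, and no share over other gene pairs was computed. Of the 7, 5 had both dKO values below both Ctrl values, each with Gzmb or Srgn as the divisor. The other 2 overlapped: Gzma to Prf1 was 2.25 and 3.12 in dKO, against 4.17 and 2.91 in Ctrl, and Gzma to Gzmk was 39.4 and 35.9 in dKO, against 55.8 and 37.4 in Ctrl. An exact two-sided permutation test of 2 against 2 libraries cannot give a p below 0.333, so no test is attached to the ratios.

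Gzmc encodes a granzyme of rodents whose gene lies 24.2 kb from Gzmb in the granzyme cluster of chromosome 14. It was scarcely read, with 151 and 131 counts in dKO and 74 and 99 counts in Ctrl, or 4.70 and 4.34 CPM against 2.17 and 2.98 CPM. It was the only member with both dKO libraries above both Ctrl libraries. The log2 fold change of 0.81 (SE 0.40, edgeR adjusted p = 0.553) did not pass, and its 95% interval ran from -0.12 to 1.74. The other granzyme genes read from that cluster were nearly silent, and none was tested. Gzmd, Gzme and Gzmg had 0 counts in all 4 libraries, and Gzmf and Gzmn together reached at most 0.0603 CPM in any library.

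Gzmk encodes granzyme K, a tryptase whose gene is the neighbour of Gzma, 70.6 kb away on chromosome 13. It had 25.6 and 38.5 CPM in dKO, against 48.2 and 50.3 CPM in Ctrl. The Ctrl libraries were alike and both above the dKO libraries, of which dKO 2 was 1.503 times dKO 1. Its log2 fold change was -0.62 (SE 0.24, edgeR adjusted p = 0.406) and varied from -0.36 without dKO 1 to -0.95 without dKO 2. The GENCODE model of Gzmk overlaps Esm1 on the other strand, and strand use in the counting is not given in the sources used here.

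Gzmm encodes granzyme M, which cleaves after long uncharged residues such as methionine. It had 5.94 and 6.35 CPM in dKO, against 12.4 and 9.22 CPM in Ctrl, from 191 to 421 counts per library. The groups were apart. The log2 fold change was -0.81 (SE 0.31, edgeR adjusted p = 0.404), with a wide 95% interval from -1.52 to -0.11.

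**Figure D3:**
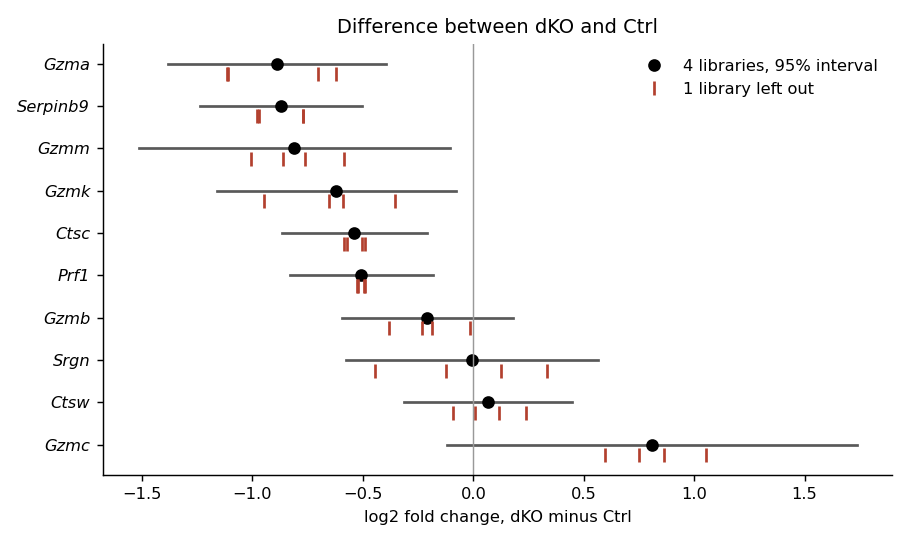
log2 fold change of dKO minus Ctrl for each member (black points) with its 95% interval from the edgeR fit of all 4 libraries, and the estimates with 1 library left out (red strokes). Prf1, Ctsc and Serpinb9 keep narrow ranges of strokes, while the strokes of Srgn and Ctsw fall on both sides of 0.

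Srgn encodes serglycin, whose glycosaminoglycan chains hold granzymes and perforin in the granule. It had 190 and 326 CPM in dKO, against 281 and 236 CPM in Ctrl. The dKO libraries bracketed the Ctrl libraries, with dKO 2 at 1.71 times dKO 1, the widest gap within a group among the 10 genes. Its log2 fold change was -0.004 (SE 0.25, edgeR adjusted p = 0.999), and the 95% interval from -0.57 to 0.57 holds differences of the size seen for Prf1 and Ctsc. The estimate was 0.33 without dKO 1 and -0.45 without dKO 2.

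Ctsc encodes cathepsin C, the dipeptidyl peptidase that removes the propeptide of granzymes A and B. It had 454 and 475 CPM in dKO, against 652 and 697 CPM in Ctrl. The groups were apart, with both pairs of libraries close together, as for Prf1. The log2 fold change was -0.54 (SE 0.14, edgeR adjusted p = 0.209), or 68.9% of the Ctrl level, and stayed between -0.59 and -0.49 when any 1 library was left out. Its GENCODE model overlaps Gm26522 on the other strand by 4743 bases, and that of Ctsw overlaps the end of Fibp by 9 bases. Ctsw encodes cathepsin W, a cysteine protease found mainly in NK cells and cytotoxic T cells. It had 1405 and 1299 CPM in dKO, against 1442 and 1144 CPM in Ctrl. The dKO values lay between the Ctrl values, and the log2 fold change was 0.06 (SE 0.17, edgeR adjusted p = 0.942) with a 95% interval from -0.32 to 0.44. Its counts depend on the counting more than those of the others: the whole-number count was 3.27 and 2.65 times the RSEM expected count in dKO and 2.80 and 2.55 times in Ctrl, against 1.97 to 2.45 times for the other 9 genes, and with RSEM counts its log2 fold change was -0.04.

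Serpinb9 encodes the serpin that inhibits granzyme B inside the killer cell. It had 1053 and 909 CPM in dKO, against 1673 and 1915 CPM in Ctrl. Both dKO libraries were below both Ctrl libraries by more than the gap within either group. The log2 fold change was -0.87 (SE 0.16, edgeR adjusted p = 0.0647), or 54.7% of the Ctrl level, with a 95% interval from -1.24 to -0.51. It had the smallest p of the 10 genes, at place 120 of 13904 tested genes, just past the 85 called. Serpinb9 passed with limma-voom (adjusted p = 0.0374), with RSEM counts (adjusted p = 0.0485) and with a minimum count of 50 (adjusted p = 0.0431). It passed also with DESeq2 (adjusted p = 0.000231) and without the filter (adjusted p = 1.94e-05), where p follows a normal curve and the spread is taken as known. It did not pass when any 1 library was left out (adjusted p from 0.0560 to 0.179). In TPM the inhibitor stood to its target Gzmb at 0.722 and 0.577 in dKO, against 0.892 and 1.28 in Ctrl. Both dKO ratios were below both Ctrl ratios. The Serpinb9 gene lies on chromosome 13 from 33003250 to 33017957 beside several close relatives, whose shared reads may not be separable.

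Among 4147 other genes that averaged 50 CPM or more, the 5 whose centred log2 CPM lay nearest to that of Serpinb9 over the 4 libraries were Kcnip3, Kdm6a, Irf8, Jak3 and S1pr5. Their Euclidean distances to Serpinb9 ran from 0.105 (Kcnip3) to 0.166 (S1pr5) in log2 units. These 5 genes were picked on the same 4 libraries, so their lower level in dKO follows from the choice and is no separate result. Irf8, an interferon regulatory factor, was called (log2 fold change -0.98, edgeR adjusted p = 0.0337, but 0.0677 without dKO 1 and 0.0873 without dKO 2), and the other 4 were not (adjusted p from 0.0522 to 0.151). S1pr5, a receptor that NK cells use to leave the marrow, had 152 and 142 CPM in dKO, against 271 and 269 CPM in Ctrl. Kdm6a is an X-linked gene, and sex goes with genotype in these libraries.

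As one pool, the 10 genes held 0.583% and 0.588% of all gene counts in dKO, against 0.841% and 0.777% in Ctrl. Counting error was small beside these differences, with 95% Wilson intervals of 0.580 to 0.585% in dKO 1 and 0.774 to 0.780% in Ctrl 2, which cover counting error only. In TPM the pool summed to 6994 and 7372 in dKO, against 10932 and 9607 in Ctrl. In TPM, the mean of Gzma differed by -2040 of the pool's -3086 (dKO minus Ctrl). In CPM, which is not scaled by length, it differed by -816 of -2391, and Serpinb9 by -813. Gzma made up 31.3% and 35.3% of the pool's TPM in dKO, against 46.4% and 39.6% in Ctrl. Ctsw made up 21.6% and 20.3% in dKO, against 14.7% and 15.5% in Ctrl, while its own TPM overlapped between genotypes. Prf1 held a like part of the pool in both, 13.9% and 11.3% in dKO and 11.1% and 13.6% in Ctrl.

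**Figure D4:**
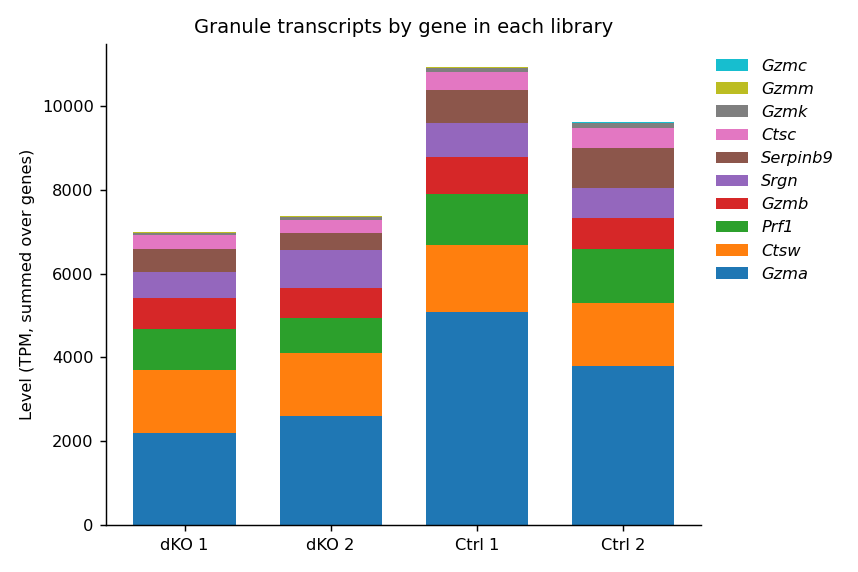
Summed TPM of the 10 members in each library, dKO on the left and Ctrl on the right, coloured by gene from Gzma at the bottom upwards. The dKO bars reach 6994 and 7372 TPM and the Ctrl bars 10932 and 9607 TPM, and the Gzma block differs most in height.

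Genes of the granule membrane, lysosomal enzymes and their inhibitors gave no call among 27 tested (edgeR), where 0.611% of all tested genes were called. The fitted level was lower in dKO for 23 of the 27, against 48.4% of all tested genes, with -0.23 as the median difference (log2), against 0.01 over all tested genes. Lamp1, the lysosomal membrane protein exposed on degranulation, and Nkg7, a granule membrane protein needed for efficient killing, had the smallest p. Lamp1 was at 195 and 296 CPM in dKO, against 156 and 100.4 CPM in Ctrl (log2 fold change 0.94, SE 0.26, adjusted p = 0.232). Nkg7 was at 641 and 770 CPM in dKO, against 1114 and 969 CPM in Ctrl (log2 fold change -0.56, SE 0.16, adjusted p = 0.253). Their estimates had opposite signs. Cst7, the cystatin that inhibits cathepsin C, was at 142 and 185 CPM in dKO, against 209 and 190 CPM in Ctrl (adjusted p = 0.650). Serpinb6b, a relative of Serpinb9, was at 458 and 484 CPM in dKO, against 705 and 601 CPM in Ctrl (log2 fold change -0.47, SE 0.15, adjusted p = 0.312).

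Of 22 transcription regulators linked to granule genes, 1 fell and none rose, where 0.611% of all tested genes were called and 0.295% were called as lower. The median log2 fold change of the 22 was -0.03. The gene that fell was Zeb2, a driver of late NK maturation, at 38.9 and 34.4 CPM in dKO, against 109 and 82.6 CPM in Ctrl (log2 fold change -1.39, SE 0.20, edgeR adjusted p = 0.0296). It was not called without Ctrl 1 (adjusted p = 0.0582) or without dKO 2 (adjusted p = 0.0679). The T-box factors Tbx21 and Eomes, which activate Prf1 and granzyme genes in killer lymphocytes, did not pass. Tbx21 was at 749 and 793 CPM in dKO, against 997 and 891 CPM in Ctrl, and Eomes at 42.9 and 54.1 CPM in dKO, against 42.2 and 44.8 CPM in Ctrl. Nfil3, which NK cells need to develop, was at 225 and 248 CPM in dKO, against 158 and 115 CPM in Ctrl (log2 fold change 0.79, SE 0.19, adjusted p = 0.156). Ets1, another Ets factor, was at 1214 and 1173 CPM in dKO, against 1430 and 1740 CPM in Ctrl (adjusted p = 0.409).

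Late maturation markers, a list also chosen with earlier results of these data known, were read beside the granule genes. Of 7, of which Zeb2 and Prdm1 are also among the regulators, 4 fell (Klrg1, Cx3cr1, Zeb2 and Cma1) and none rose, against the same 0.295% called as lower over all tested genes. The summed level of the 7 was 500.2 and 440 CPM in dKO, against 968 and 874 CPM in Ctrl. Klrg1, which encodes a receptor that restrains mature NK cells, was at 23.7 and 21.1 CPM in dKO, against 113 and 87.3 CPM in Ctrl (adjusted p = 0.00560), and the chemokine receptor gene Cx3cr1 at 10.8 and 12.3 CPM in dKO, against 36.2 and 36.2 CPM in Ctrl (adjusted p = 0.0209). Cma1, which encodes a chymase-type granule protease, was at 30.1 and 36.3 CPM in dKO, against 75.9 and 100.4 CPM in Ctrl (log2 fold change -1.41, SE 0.21, edgeR adjusted p = 0.0337). Without dKO 1, Cx3cr1 (adjusted p = 0.0549) and Cma1 (adjusted p = 0.0677) were not called. The part of these markers' cells in the values of the granule genes was not tested.

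**Figure D5:**
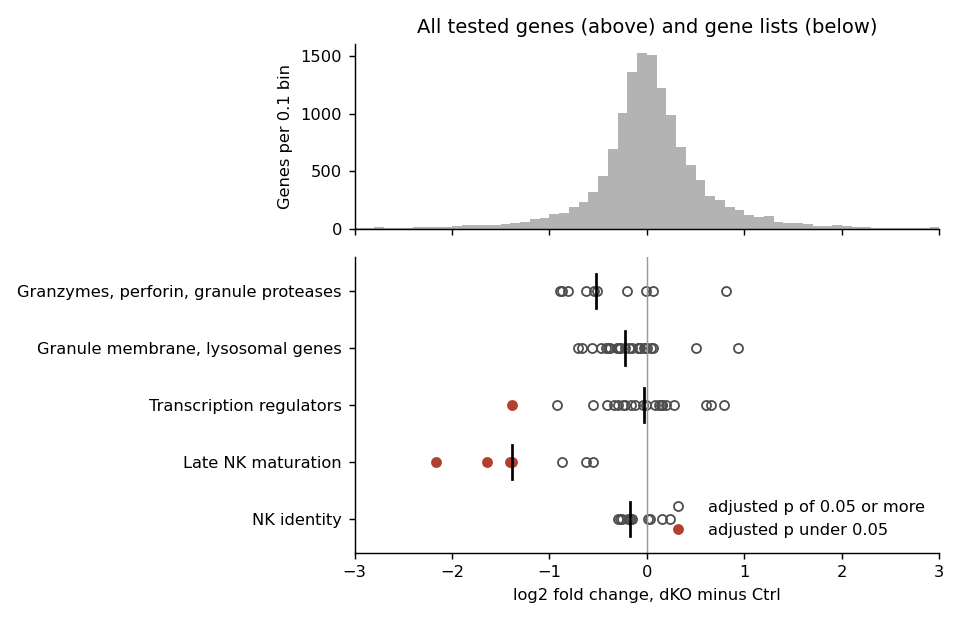
Distribution of the log2 fold change (dKO minus Ctrl) over all tested genes in bins of 0.1 (top), and the same for the members of 5 gene lists (bottom; filled red points passed at an adjusted p under 0.05, black strokes are list medians). The 10 granule genes have a median of -0.52 and no filled point, while the late maturation list has 4 filled points; Zeb2 appears in that list and among the regulators.

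Markers of other cells that carry granule transcripts were also read. T cell markers, whose cells share granzymes and perforin with NK cells, fell for 2 of 10 tested genes (Cd3e and Trac). Over all tested genes, 0.295% were called as lower. Both dKO libraries lay below both Ctrl libraries for 8 of the 10, against 19.9% of all tested genes. The median log2 fold change of the 10 was -1.49, against 0.01 over all tested genes. The list summed to 774 and 686 CPM in dKO, against 952 and 871 CPM in Ctrl, most of it the receptor constant genes Trbc1 and Trbc2, neither of which passed. The other 8 genes, a split made after the values were seen, summed to 46.9 and 75.9 CPM in dKO, against 213 and 222 CPM in Ctrl. Cd3e was at 8.90 and 12.2 CPM in dKO, against 47.5 and 52.5 CPM in Ctrl. Myeloid precursor markers, whose cells express Ctsc and Srgn, had no call among 6, where 0.611% of all tested genes were called. Their median log2 fold change was -1.84, and they summed to 93.7 and 89.0 CPM in dKO, against 524 and 163 CPM in Ctrl. ILC1 markers, of innate cells close to NK cells, had no call among 8, with a median log2 fold change of -0.74. Their fitted level was lower in dKO for all 8, against 48.4% of all tested genes. Both dKO libraries lay below both Ctrl libraries for 5 of the 8, against 19.9% of all tested genes. The list summed to 207 and 223 CPM in dKO, against 349 and 367 CPM in Ctrl. Basophil and mast cell markers summed to 15.7 and 34.0 CPM in dKO, against 15.3 and 25.1 CPM in Ctrl, with Mcpt4 and Tpsb2 at 0 in all 4 libraries. Neutrophil markers summed to 1312 and 2191 CPM in dKO, against 1698 and 2689 CPM in Ctrl. Monocyte and macrophage markers summed to 3812 and 4483 CPM in dKO, against 3682 and 4009 CPM in Ctrl, most of it Ccr2 and Lyz2. Of the 6 tested, 4 had a higher fitted level in dKO and 2 a lower one. Ly6c2, with the smallest p, was at 104 and 187 CPM in dKO, against 347 and 349 CPM in Ctrl (log2 fold change -1.26, SE 0.26, edgeR adjusted p = 0.0994). B lineage markers summed to 104 and 133 CPM in dKO, against 108 and 239 CPM in Ctrl. All 8 had a lower fitted level in dKO, against 48.4% of all tested genes, with a median log2 fold change of -0.60. The basophil and mast cell, neutrophil, monocyte and B lineage lists had no call, and the part of other cells in the granule values was not tested.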

How the data were processed

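RNA of 2 dKO and 2 Ctrl NK cell samples was extracted with a miRNeasy kit and made into Smart-seq2 (full-length cDNA) libraries, per the labels' protocols. Deposited by the authors were tables of whole-number gene counts and RSEM tables of expected counts, TPM, FPKM and lengths, per the file headers. The deposited FPKM values and lengths entered no result. The submitters' processing notes list TopHat2 2.1.1, HTSeq 0.6.1, RSEM 1.3.0, DESeq2 1.32.0, Trimmomatic 0.36 and FastQC 0.11.5, and the build mm9. Not given in the sources used here were the annotation release, the strand setting and the parameters. Positions and promoters are GRCm38 (GENCODE M21 and RefSeq), matched by Ensembl identifier or symbol, not in the build that the counting used.

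Rows that name no gene (reads in no gene, 23.8% and 24.3% of reads in dKO and 18.1% and 21.5% in Ctrl, and ambiguous reads, 2.20 to 2.34% over the 4 libraries) were left out. Counts were about 2.05 to 2.07 times the RSEM expected counts (median over genes above 50), so counting error may be larger than the counts give. All genes were fitted with edgeR 4.0.16 (robust quasi-likelihood, TMM, minimum count 10) in R 4.3.3, with the groups as the only term. SE is the log2 fold change divided by the root of F, and intervals use the fit's degrees of freedom. The p-values rest on a spread shared across genes, and measure the spread between samples that the series' design calls biological replicates. With DESeq2 and in the fit without the count filter, p follows a normal curve, which takes that spread as known. Passes in those fits are therefore less cautious than in the main fit. Alternatives were other scalings and filters, DESeq2 1.42.0, limma-voom (limma 3.58.1), rounded RSEM expected counts, a replicate block and leaving out each library, where the lone library of a group is assumed to vary like the others. The procedure was also run on counts simulated from its own fitted means and spread. Such a run cannot check that model, and no result here rests on it. The members and the lists were chosen with earlier results of these data known. Named were all members, the GABP subunits as a check of genotype, called genes and those with the smallest p of each list, and the 5 genes most like the member with the smallest p, while markers of other cells were read by their sums; Cst7, Serpinb6b, Tbx21, Eomes, Ets1, and Prdm1 were added for their roles.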

Additional observations from a re-analysis of the deposited data

How the results depend on the processing

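The number of all genes called, 85, became 559 without the count filter, 147 with a minimum count of 50 and 395 with DESeq2, and ranged from 73 to 187 with 1 library left out. Of the granule genes, 0 were called in the main fit, 2 without the filter (Gzma and Serpinb9), 2 with DESeq2 (the same 2), 1 with a minimum count of 50, 1 with limma-voom and 1 with RSEM counts (each Serpinb9), and 0 to 1 with 1 library left out (Gzma, without Ctrl replicate 2). The dKO minus Ctrl difference in the share of gene counts on the 10 genes was -0.224 percentage points, -0.309 as a share of TPM, and -0.256 to -0.191 with 1 library left out. Srgn changed sign to 0.0037 with upper quartile scaling, 0.024 with library size only, 0.0025 with a minimum count of 50, 0.021 with RSEM counts, and ranged from -0.45 to 0.33 with 1 library left out (above 0 without Ctrl replicate 1 or dKO replicate 1). Ctsw changed sign to -0.036 with RSEM counts and ranged from -0.092 (without Ctrl replicate 2) to 0.24 with 1 library left out. The other 8 genes kept their sign in all 13 alternatives run. Replicate numbers pair nothing in the labels, and same-numbered libraries deviated together with r = -0.054 over genes; with the replicate number as a block, 100 genes and 0 granule genes were called. Depth limits Gzmc and Gzmm, at 74 to 421 counts per library.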
